A study of Mus musculus with 4 samples.

Results

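The cytosolic ribosomal protein genes were followed through 4 single-cell RNA libraries of mouse brain. Members were taken by symbol alone: every feature named Rpl or Rps plus a number, with at most a short letter and digit ending, together with Rplp0, Rplp1, Rplp2 and Rpsa, and without any copy named as a pseudogene by the ending -ps. This gave 89 genes of the 55487 features in the files, 53 named for the large subunit and 36 for the small subunit. All 89 were found in the GENCODE M21 annotation of GRCm38, and 4 of them lie on chromosome X. Although the rule removed -ps copies, 6 members are annotated as processed pseudogenes there, namely Rps4l, Rps12l1, Rpl32l, Rpl6l, Rps3a2 and Rps3a3.

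Cytosolic ribosomal proteins are the protein part of the ribosome that translates nuclear-encoded mRNA. Nearly all of these proteins are present once in each ribosome, and their mRNAs are known for a start at C followed by a run of pyrimidines, the 5′ terminal oligopyrimidine or TOP element, through which TOR signalling controls their translation. In endothelial cells, as in other cells, these mRNAs are among the most abundant, and their many processed pseudogenes make read assignment difficult.

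The libraries came from young mice labelled WT Cre or EC-K4KO and from old mice labelled WT Cre or EC-K4KO, with 1 library in each of the 4 groups. Where 4 values are listed without labels, they follow this order: both young libraries, WT Cre first, then both old ones, WT Cre first. EC-K4KO mice carry a floxed Klf4 and a tamoxifen-induced Cre driven by the Cdh5 promoter, which is active in endothelium throughout the body and not only in brain, and the WT Cre littermates carry the same Cre. Mice of both sexes entered the study, and the labels give age as young or old and do not say how many animals made each library. After filtering, 4496, 6555, 5540 and 4146 cells remained in that order, with a median of 6916, 8778, 5371 and 4539 unique molecular identifiers (UMIs, one per captured mRNA molecule) per cell. Between 7 and 42 cell barcodes were shared by any pair of libraries. Cells were clustered without the ribosomal protein genes and their copies, and clusters were named from marker genes.

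Endothelial-like cells numbered 2698, 3243, 2080 and 1817, microglia-like cells 336, 583, 1308 and 763, and 4 other classes, smooth muscle-like, pericyte-like, astrocyte-like and border macrophage-like, held at least 50 cells in every library. The labels describe an enrichment of brain endothelial cells or nuclei in a protocol shared by several assays, and other classes were present in all 4 libraries. In endothelial-like cells Klf4 stood at 1649 UMIs per 1000000 of the class (CPM) in the young library labelled WT Cre and at 3194 CPM in its EC-K4KO counterpart, and at 2107 and 3203 CPM in the old pair. Klf4 was therefore not lower under the knockout label. The counts do not show which part of the transcript was read, and every direction given below for genotype refers to the library labels.

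To show what the members' genes look like where transcription begins, the stretch from 30 bases before to 30 bases after the start is printed for the 5 members with the lowest age ratios in endothelial-like cells (Rpl10 to Rpl13a) and for 4 with high ones (Rps12 to Rpl23). The M21 gene starts lie 493 bases (Rpl35) and 1947 bases (Rps2) from the RefSeq starts used here, and 2 to 77 bases away for the others. Sequences are from RefSeq on GRCm38.p6, the gene's own strand, and capitals mark runs of 8 or more C or T.
Rpl10 (chrX:74270786-74270845, plus strand): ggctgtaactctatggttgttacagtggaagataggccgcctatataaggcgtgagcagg
Rpl35 (chr2:39005102-39005161, minus strand): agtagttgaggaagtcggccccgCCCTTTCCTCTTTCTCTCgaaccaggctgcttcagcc
Rpl5 (chr5:107900498-107900557, plus strand): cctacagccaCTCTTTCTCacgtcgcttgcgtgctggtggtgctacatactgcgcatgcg
Rpl7l1 (chr17:46782627-46782686, minus strand): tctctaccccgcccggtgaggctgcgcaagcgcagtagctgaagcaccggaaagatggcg
Rpl13a (chr7:45128716-45128775, minus strand): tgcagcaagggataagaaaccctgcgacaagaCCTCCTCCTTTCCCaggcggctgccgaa
Rps12 (chr10:23787180-23787239, minus strand): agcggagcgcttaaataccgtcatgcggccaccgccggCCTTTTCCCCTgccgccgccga
Rpsa (chr9:120127736-120127795, plus strand): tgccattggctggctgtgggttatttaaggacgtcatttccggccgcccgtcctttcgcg
Rps2 (chr17:24720033-24720092, plus strand): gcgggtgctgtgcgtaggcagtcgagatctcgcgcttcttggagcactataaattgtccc
Rpl23 (chr11:97782410-97782469, minus strand): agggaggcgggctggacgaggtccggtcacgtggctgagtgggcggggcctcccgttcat

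Among the 64 members with a promoter sequence, 36 (56.2%) held such a run within 30 bases of the annotated start, against 25.8% of all 27025 genes in the same table. A start at C followed by at least 4 more pyrimidines was found in 14 members (21.9%) and in 3.01% of all genes. This count depends on the exact base annotated as the start, which differed between M21 and RefSeq for all 9 genes printed. Over the whole 300 bases, read on both strands, the Ets-type motif CCGGAAG was held by 40.6% of the members and 9.93% of all genes, the YY1-type motif GCCATNTT by 20.3% and 6.96%, and the Sp1-type motif GGGCGG by 60.9% and 38.2%. The E-box CACGTG was present in 9.38% of members and 8.09% of genes, and TATAAA in 12.5% and 15.7%. Of the genes printed, 3 of the 5 with the lowest age ratios (Rpl35, Rpl5 and Rpl13a) and 1 of the 4 with high ones (Rps12) held a run of 8 or more pyrimidines. Of these, only Rpl35 had its annotated start at a C inside the run, whereas Rpl5 and Rpl13a started at G and Rps12 at A.

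How much of each cell's mRNA the family took up was examined first. In endothelial-like cells the members made up 10.4% and 10.5% of UMIs in the young WT Cre and EC-K4KO libraries, and 11.7% and 11.3% in the old ones. Both old libraries thus stood above both young ones. Median shares per cell were 10.03%, 9.95%, 11.1% and 10.7%, and each library's cells spread widely, with quartiles of 8.69% and 11.5% in young WT Cre and 9.54% and 12.9% in old WT Cre.

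The share also differed among cell classes. Border macrophage-like cells gave 17.8% to 18.7% of UMIs to the members, smooth muscle-like cells 8.43% to 9.03%, pericyte-like cells 4.77% to 7.45% and astrocyte-like cells 2.65% to 3.25%. The ranges over the 4 libraries did not overlap between these classes, nor between any of them and endothelial-like cells. In percentage points microglia-like cells differed most with age, from 13.3% and 12.96% in the young libraries to 17.4% and 18.4% in the old ones, and the value of old EC-K4KO lay within the border macrophage-like range. As a ratio, the largest age difference was that of WT Cre pericyte-like cells, at 1.563, while EC-K4KO pericyte-like cells stood at 0.965. Microglia-like cells had 1.314 in WT Cre and 1.419 in EC-K4KO.

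**Figure D1:**
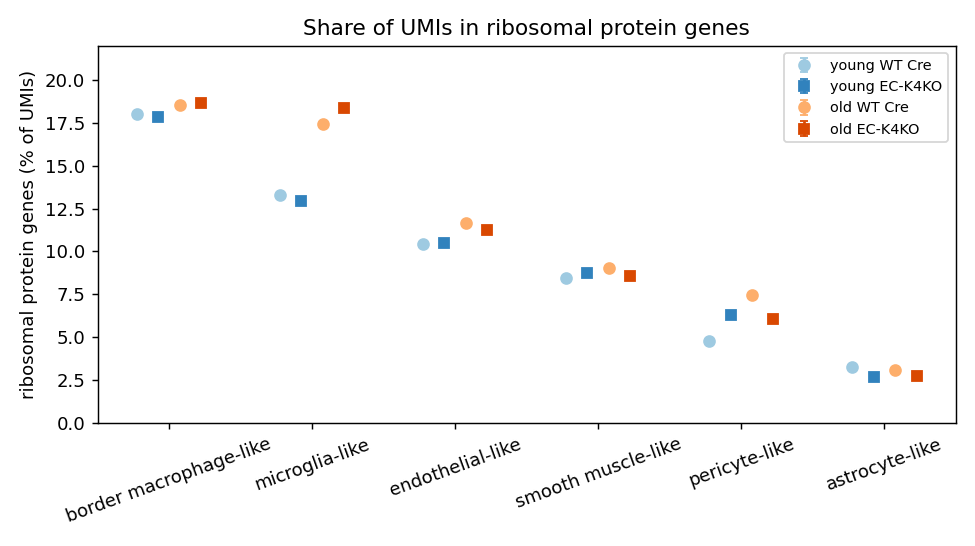
Share of all UMIs that fell in the 89 ribosomal protein genes (vertical axis, percent) in 6 cell classes, with one point per library; 95% exact counting intervals are smaller than the symbols. Microglia-like cells of the 2 old libraries, at 17.4% and 18.4%, lie above those of the young libraries at 13.3% and 12.96%, and pericyte-like cells spread from 4.77% to 7.45%.

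For age in endothelial-like cells, the share ratio was 1.118 in WT Cre (95% counting interval 1.116 to 1.121) and 1.075 in EC-K4KO (1.072 to 1.077). These intervals cover counting error only, since each group is a single library. Within the 6 endothelial-like clusters with at least 50 cells in each library, the ratio ranged from 1.089 to 1.14 in WT Cre and from 1.034 to 1.11 in EC-K4KO, so every one of them was higher in the old library. The cluster led by Ch25h and Ackr1 had the highest shares, from 11.9% to 13.3%, and also the deepest cells of these 6. It held 194 and 394 cells of the young and 298 and 299 cells of the old libraries.

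Depth and other transcripts also moved between these libraries. Endothelial-like cells had a median of 6261, 9738, 4488 and 3673 UMIs, and among cells with 3000 to 6000 UMIs the share was 10.3%, 10.4%, 11.4% and 11.0%, so the order by age held at matched depth. The summed level of 15 immediate early and dissociation genes was 15580, 20180, 27480 and 24730 CPM, higher in the old libraries as well. The part of these genes in the result was not tested. Markers of other classes were present at low levels in all 4 sums, and the 6 neutrophil markers stood at 7.34, 7.06, 10.9 and 189 CPM. The sums of 5 choroid plexus markers (67.1, 17.5, 293 and 143 CPM) and of 6 border macrophage markers (10.4, 13.7, 25.9 and 35.7 CPM) were higher in both old libraries, as were those of neutrophil, granulocyte precursor (0.49, 0.27, 0.95 and 5.46 CPM), microglia (58.6, 57.6, 69.1 and 71.0 CPM), monocyte (0.90, 1.11, 2.86 and 3.92 CPM) and B cell markers (448, 479, 496 and 491 CPM). Smooth muscle, pericyte and astrocyte markers were lower in both. Their part in the result was not tested. The 10 endothelial markers summed to 24140, 24130, 22050 and 20080 CPM, with none at 0.

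The individual members were then compared in endothelial-like cells. With a mean of at least 10 CPM, 81 of the 89 were measured, and 8 were not, which were 5 of the pseudogenes (Rpl32l, Rpl6l, Rps12l1, Rps3a2 and Rps3a3) and the tissue-restricted Rpl3l, Rpl10l and Rpl39l. For old over young WT Cre the median member log2 ratio was 0.18 and 64 of 81 members lay above 0, whereas the median over all 8416 genes was -0.18 and 25.6% lay above 0. For old over young EC-K4KO the corresponding values were 0.11 for the members, 55 of 81 above 0, and -0.16 with 28.2% above 0 for all genes. Scaled with TMM factors, as in the edgeR test, the member medians were 0.32 and 0.19, and without the cluster led by Ch25h and Ackr1 they were 0.13 and 0.07. No member reached a log2 ratio of 0.5 upward in either comparison, where 4.92% and 5.14% of all genes did, and 2 members in each passed it downward, against 11.1% and 9.72% of all genes. Small subunit members had medians of 0.19 and 0.15, and large subunit members 0.15 and 0.05.

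**Figure D2:**
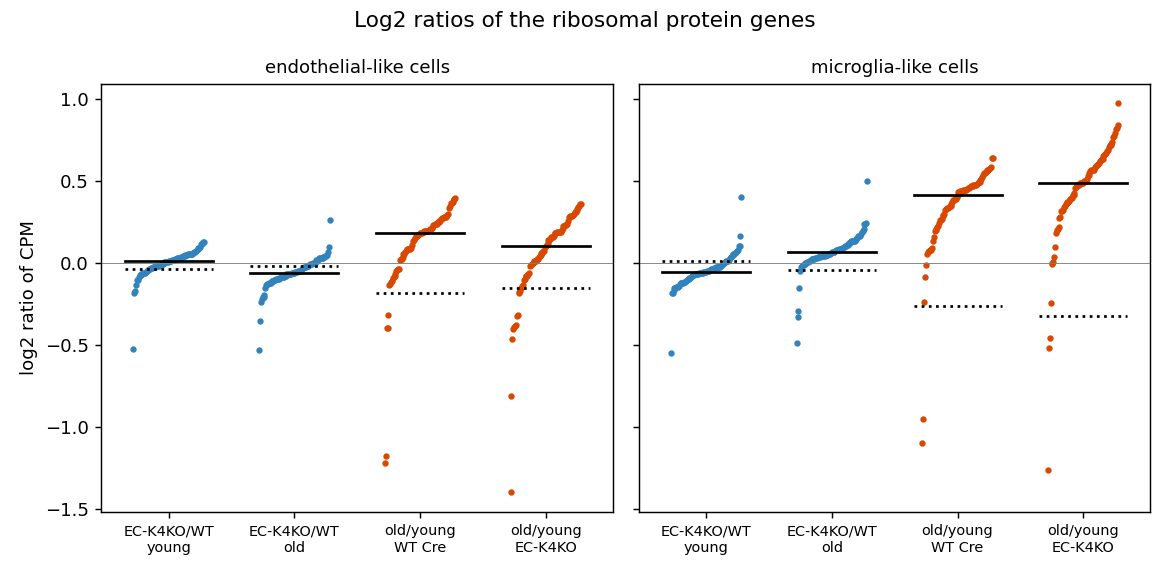
Log2 ratios of CPM for the 81 ribosomal protein genes with at least 10 CPM, in endothelial-like (left) and microglia-like (right) cells, one point per gene sorted within each of 4 comparisons; solid lines mark the members' median and dotted lines that of all genes. In both old-over-young comparisons the members' medians (0.18 and 0.11 in endothelial-like, 0.41 and 0.49 in microglia-like cells) lie above 0 and the medians of all genes below it.

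Libraries were tested with an additive model of age and genotype label, with 2 libraries on each side and 1 residual degree of freedom, and fitted differences are on the TMM scale, so that they need not equal ratios of the CPM printed beside them. Here edgeR's quasi-likelihood test with Benjamini-Hochberg adjustment over 14671 genes called 43 of 85 tested members higher in the old libraries, beside 12.8% of all genes, and 4 lower, beside 9.12%. The count of higher members depended on scaling: with library totals in place of TMM factors it was 17, with 5 lower, beside 7.34% and 19.8% of all genes, and the median over all genes was -0.17 in place of -0.01. Nothing in the labels says whether the old and young libraries were handled together, and age and handling cannot be told apart.

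Several small subunit members increased with age. Rpsa, the laminin receptor precursor that is also a small subunit protein, rose from 889 and 930 CPM in the young WT Cre and EC-K4KO libraries to 1163 and 1156 CPM in the old ones (fitted log2 difference 0.50, edgeR adjusted p = 0.000952). Rps2, Rps12 and the large subunit member Rpl23 rose similarly, by 0.50, 0.51 and 0.49 on the log2 scale. For these 4 genes both old libraries were above both young ones and the call held in all 5 fits.

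The stalk proteins recruit elongation factors to the large subunit. Rplp1 rose from 2758 and 2664 CPM to 3340 and 3414 CPM (log2 0.47, edgeR adjusted p = 0.00376), and Rplp0, which anchors the stalk, from 881 and 904 CPM to 993 and 1039 CPM (log2 0.34, edgeR adjusted p = 0.0142). Rplp2 stood at 1106 and 1092 CPM in young and 1120 and 1045 CPM in old libraries, and did not pass the test (log2 0.13, edgeR adjusted p = 0.353). The Rplp0 call was lost with library totals.

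Against the family's direction, 4 members were lower with age. Rpl10, a late-joining large subunit protein encoded at chrX:74270812-74273135, had 441 and 432 CPM in the young libraries and 189 and 164 CPM in the old ones, and fell by 1.16 on the log2 scale (edgeR adjusted p = 7.59e-08). Rpl5, which carries 5S rRNA to the ribosome, went from 611 and 634 CPM to 463 and 362 CPM (log2 -0.45, edgeR adjusted p = 0.00442). The call held for both in all 5 fits.

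Rpl35, a protein near the exit of the nascent chain, followed a different course. It stood at 253 and 175 CPM in the young WT Cre and EC-K4KO libraries and at 112 and 134 CPM in the old ones (log2 with age -0.64, edgeR adjusted p = 0.00135). Young WT Cre was thus the high library, and the log2 ratio for the genotype label was -0.53 among young and 0.26 among old libraries. With DESeq2 the call was lost (adjusted p = 0.449). In the last 400 bases of the Rpl35 transcript, 78.1% of 90-base windows occur unchanged in another gene's transcript, against 0% for Rpl5 and Rpl7l1. Rpl7l1, a paralogue of Rpl7 that acts in ribosome assembly, had 68.8, 62.6, 52.3 and 45.3 CPM (log2 -0.28, edgeR adjusted p = 0.0201), and its call was lost with DESeq2 as well.

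**Figure D3:**
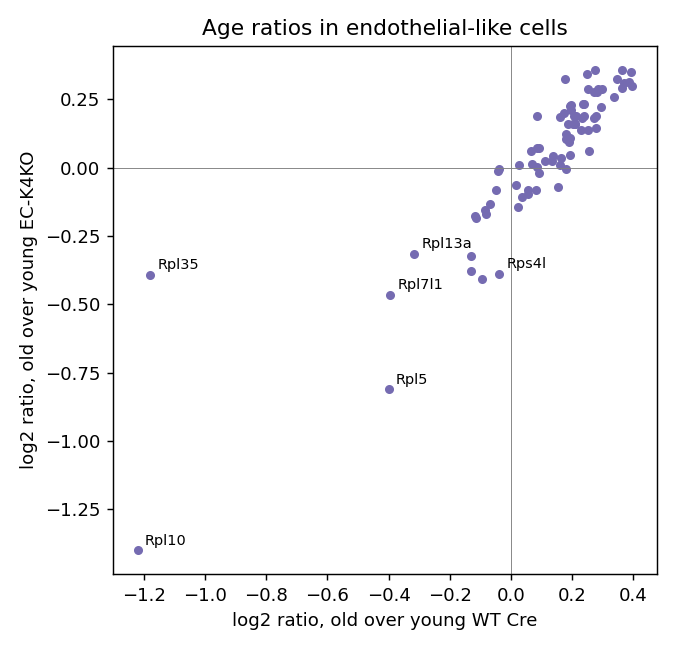
Log2 ratio of CPM with age in endothelial-like cells for 81 ribosomal protein genes, in the WT Cre pair (horizontal axis) and in the EC-K4KO pair (vertical axis), which share no library. Rpl10 (-1.22 and -1.40) lies apart at the lower left, Rpl35 (-1.18 and -0.39) is low mainly in WT Cre, and most genes lie in the upper right.

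The age ratios of individual members resembled each other in the 2 genotype labels, with a Pearson r of 0.88 and a Spearman rho of 0.90 across 81 members, and 0.92 for r without the 2 members farthest from the median. Across all 8416 genes r was 0.76. These are descriptions across genes, which are not independent replicates, and a gene's base composition, length and copies are shared by both pairs.

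The 4 members called lower in endothelial-like cells were followed over all 6 classes, 2 of the 12 comparisons being the endothelial-like ones in which they were chosen. Rpl10 was lower in the old library in all 12 comparisons of 6 classes and 2 genotype labels, by log2 ratios from -1.80 to -0.83. In border macrophage-like cells, for instance, it stood at 1168 and 1049 CPM in young and 423 and 301 CPM in old libraries. Rpl35 and Rpl5 were each negative in 11 of 12 comparisons, the exceptions being Rpl35 in EC-K4KO microglia-like cells (0.10) and Rpl5 in WT Cre pericyte-like cells (0.28). Rpl7l1 was negative in 8 of 12 and reached 0.30. In the microglia-like fit neither Rpl35 (log2 -0.10, edgeR adjusted p = 0.547) nor Rpl5 (log2 -0.05, edgeR adjusted p = 0.771) was called, but with library totals both were called lower (adjusted p = 0.000574 and 0.000796). Among the rising members Rpsa was positive in all 12 (0.02 to 0.88).

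The family as a whole was not higher with age in every class. Its median log2 ratios in WT Cre and EC-K4KO were 0.11 and -0.02 in smooth muscle-like, 0.61 and -0.045 in pericyte-like, -0.07 and 0.06 in astrocyte-like and 0.065 and 0.07 in border macrophage-like cells. Over all genes the medians in the same order were -0.048 and -0.004, -0.266 and -0.024, 0.05 and 0.0, and -0.174 and -0.027. The classes come from the same 4 libraries, so that they are not separate animals.

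**Figure D4:**
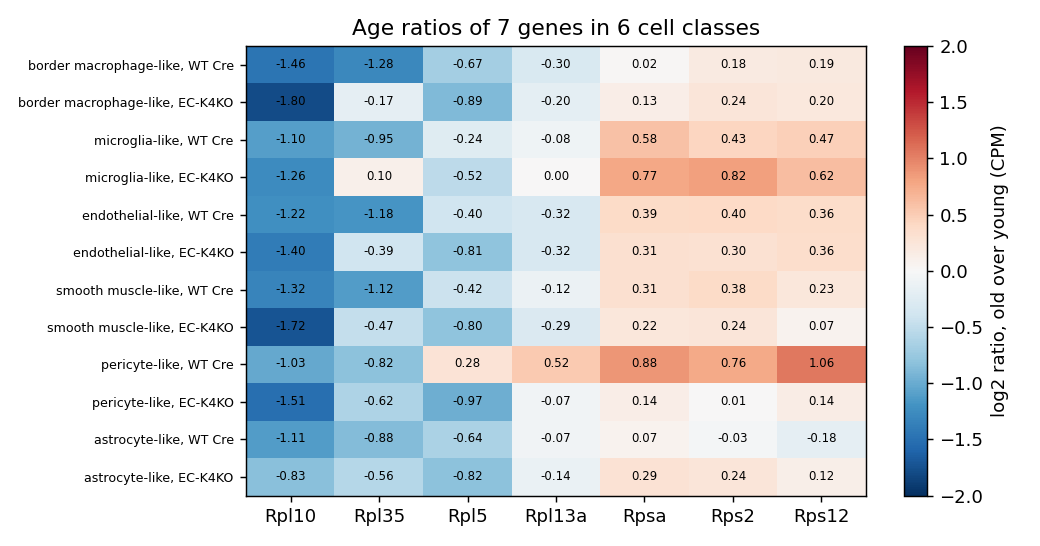
Log2 ratio of CPM, old over young, for 7 ribosomal protein genes (columns) in 6 cell classes and both genotype labels (rows); red is higher and blue lower in the old library. Rpl10 is negative in every row, from -1.80 to -0.83, whereas Rpsa is positive in every row.

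Reads from a stretch that near-identical genes share do not show which gene they came from, and for Rpl10 this bears on the level itself. A sequence search found 1539 near copies of the members among annotated transcripts, 1222 of them under Gm symbols, and 246 with at least 98% identity. In endothelial-like cells 823 copies had a UMI, and together they held 1.45% as many UMIs as the members. The load was uneven: relative to the parent, copies held 45.9% for Rpl13a, 39.2% for Rpl36a (mainly the coding retrogene Rpl36al), 27.3% for Rpl10, 12.5% for Rps23 and 8.57% for Rps27.

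Of the 90-base windows of the Rpl10 transcript, 91.7% occur unchanged in another gene's transcript, and all of them in its last 400 bases. Its copy Rpl10-ps3 (chr9:50344201-50344968, minus strand) is annotated as protein-coding and is identical over 740 aligned bases. The last 60 coding bases before the stop codon show the problem for Rpl10 and for Rpl13a with its copy Gm11478 (chr11:86630428-86631026, minus strand). A difference would be in capitals, and there is none in either pair.
Rpl10: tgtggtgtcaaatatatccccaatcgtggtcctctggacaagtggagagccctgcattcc
Rpl10-ps3: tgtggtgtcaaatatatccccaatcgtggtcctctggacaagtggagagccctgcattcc
Rpl13a: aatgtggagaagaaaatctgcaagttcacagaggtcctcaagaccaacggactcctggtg
Gm11478: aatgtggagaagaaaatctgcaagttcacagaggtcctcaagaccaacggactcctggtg

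The copies of these genes behaved differently. Rpl10-ps3 stood at 86.8 and 103 CPM in the young and 101 and 107 CPM in the old libraries, and did not share the lower level of Rpl10 in the old libraries. With all its copies added, Rpl10 had 529, 537, 292 and 272 CPM, and the age ratios were -0.86 and -0.98 in place of -1.22 and -1.40. Gm11478 had 109, 124, 59.2 and 39.9 CPM, and Rpl13a itself 233, 236, 187 and 189 CPM. Adding its copies took the age ratios of Rpl13a from -0.32 and -0.32 to -0.47 and -0.65. Adding every copy to its parent left the family's medians at 0.18 and 0.11. Copies held 1.45% as many UMIs as the members, so this sum could move the medians little. It cannot show reads that were counted for no gene.

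**Figure D5:**
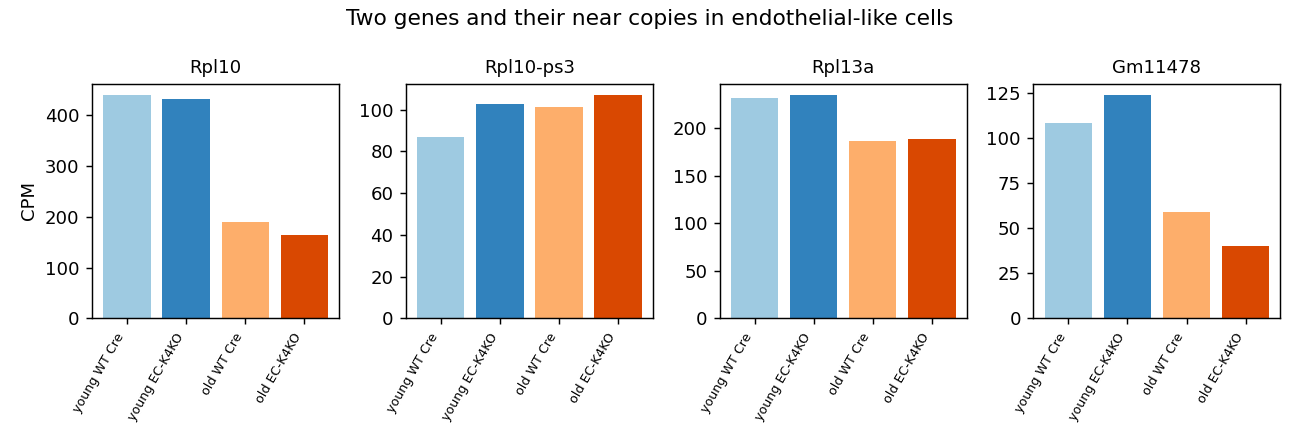
CPM of Rpl10, its copy Rpl10-ps3, Rpl13a and its copy Gm11478 (one panel each, bars from 0, each panel on its own scale) in endothelial-like cells of the 4 libraries, with 1 library per bar and no error bar. Rpl10 and Gm11478 are lower in both old libraries, while Rpl10-ps3 stays between 86.8 and 107 CPM.

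The genotype label was compared within each age. In endothelial-like cells the median member log2 ratio was 0.01 between the young libraries and -0.06 between the old ones, beside -0.04 and -0.02 over all genes. In each pair 1 of 81 members passed a log2 ratio of 0.5 in either direction, beside 3.72% and 3.83% of all genes: Rpl35 in the young pair (-0.53) and the pseudogene Rps4l in the old pair (-0.53). Shares differed by a ratio of 1.006 among the young libraries (95% counting interval 1.005 to 1.008) and of 0.967 among the old ones (0.964 to 0.969). The sign in the young pair changed with the choice of cells, to -0.03 without the cluster led by Ch25h and Ackr1.

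No member was called for the genotype label by edgeR, beside 3.23% of all genes in either direction, nor by DESeq2, beside 0.491% of all genes higher and 0.314% lower. In each of these fits 1 of 85 members had an unadjusted p under 0.05, beside 1901 of 14671 genes in edgeR and 519 (3.54%) in DESeq2. The closest was Rps4l, at 116, 102, 113 and 78.1 CPM (log2 -0.31, edgeR adjusted p = 0.0755), which passed in 1 of 5 fits, without a filter (adjusted p = 0.0178). For Rpl39, Rpl38, Rps4x and Rplp0, which were among the members highest under the EC-K4KO label, fitted log2 differences were 0.08 to 0.11 with edgeR adjusted p from 0.748 to 0.832. A difference of this size did not pass the test with 1 library per group, which does not show that the labels were alike.

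In microglia-like cells, in which the Cdh5-driven Cre is not expected to act, the median member log2 ratio with age was 0.41 in WT Cre and 0.49 in EC-K4KO, beside -0.26 and -0.33 over all 7808 genes. With TMM factors, as in the edgeR test, the member medians were 0.76 and 0.88. Past a log2 ratio of 0.5 upward were 15 and 39 of 81 members (5.53% and 6.99% of all genes), and 2 members in each passed it downward (28.2% and 35.7%). By edgeR 76 of 81 members were called higher with age, beside 16.8% of all genes, and 1 lower, Rpl10, beside 12.2%. With library totals the counts were 65 and 3, beside 7.45% and 35.4% of all genes. Rpl23 rose from 2695 and 2519 CPM to 4201 and 4948 CPM, log2 ratios of 0.64 and 0.97 in CPM (fitted log2 difference on the TMM scale 1.14, edgeR adjusted p = 3.2e-15), and Rpl10 went from 962 and 881 CPM to 450 and 367 CPM (log2 -0.85, edgeR adjusted p = 8.59e-13).

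The microglia-like class was made up differently by age. A cluster led by Il1a, Ccl3 and Ccl4, genes of activated microglia, held 62 and 88 cells of the young libraries and 916 and 534 of the old ones, and a cluster led by P2ry12 and Cx3cr1 held 274, 495, 392 and 229. Over the whole class the 8 microglia markers summed to 28160, 29680, 20610 and 21420 CPM, the 10 endothelial markers to 421, 322, 111 and 167 CPM and the 5 choroid plexus markers to 87.8, 24.8, 351 and 126 CPM. The 6 border macrophage markers were higher in both old libraries (3.84, 14.4, 18.1 and 44.9 CPM), and Malat1, a nuclear RNA, stood at 22880, 22370, 16180 and 15530 CPM. The 15 immediate early and dissociation genes summed to 15010, 13970, 13780 and 11080 CPM. Mitochondrial genes held 3.329%, 2.875%, 3.787% and 3.422% of UMIs. Their part in the age difference was not tested. In the cluster led by P2ry12 and Cx3cr1 alone the share of members was 12.3%, 12.4%, 15.7% and 15.9%, and the median age ratios were 0.37 and 0.35. In the cluster led by Il1a, Ccl3 and Ccl4 the share was 16.4%, 15.2%, 17.98% and 19.1%. The ratio of shares with age was 1.28 in WT Cre and 1.285 in EC-K4KO in the former cluster and 1.097 and 1.259 in the latter. Share and depth were linked within each library, with a Spearman rho across cells of 0.30 to 0.51, whereas in endothelial-like cells rho was 0.09 to 0.11. Among microglia-like cells with 3000 to 6000 UMIs the shares were 10.8%, 10.7%, 16.1% and 16.9%.

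For the genotype label in microglia-like cells, median ratios were -0.05 in the young and 0.06 in the old pair. In the young pair 1 member passed a log2 ratio of 0.5 in either direction and in the old pair none did, beside 7.59% and 6.58% of all genes. By edgeR and by DESeq2 no member was called, beside 1.36% of all genes in the edgeR test and, in DESeq2, 0.0528% higher and 0.088% lower. None had an unadjusted p under 0.05 in either fit, beside 7.31% of all genes in edgeR and 0.775% in DESeq2.

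The make-up of the family was compared between the 2 classes for the 5 members with the greatest difference among those with the same direction in all 4 libraries. As a share of member UMIs, Rplp1 was higher in microglia-like than in endothelial-like cells, by 0.63 to 0.82 on the log2 scale. The reverse held for Rps4l (-1.72 to -1.25), Rpl38 (-1.31 to -1.06), Rps27l (-1.08 to -0.79) and Rpl41 (-0.74 to -0.68). The values of genes chosen in this way are descriptions.

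Among the paralogues of core members, Rpl22l1 rose with age in endothelial-like cells from 325 and 323 CPM to 418 and 395 CPM (log2 0.48, edgeR adjusted p = 0.000641), as did its core counterpart Rpl22 from 938 and 954 CPM to 1085 and 1065 CPM (log2 0.33, edgeR adjusted p = 0.0158), whose call was lost with library totals. Rps27l, a paralogue of Rps27, had 235, 247, 215 and 197 CPM and did not pass the test (log2 -0.08, edgeR adjusted p = 0.57). Rpl39l, known from testis, had 57, 110, 19 and 27 UMIs in all endothelial-like cells. Rpl3l, known from heart and skeletal muscle, had 2 UMIs in young WT Cre and none elsewhere, and Rpl10l, an autosomal retrogene active in testis, had none in any library.

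Among the members with the highest CPM, Rps29, Rpl41 and Rps24 did not pass the test with age. Rps29 stood at 2742, 2777, 2589 and 2470 CPM (log2 0.02, edgeR adjusted p = 0.896) and Rpl41 at 2455, 2619, 2300 and 1978 CPM (log2 -0.10, edgeR adjusted p = 0.556), and Rps24 had a fitted log2 difference of 0.24 (edgeR adjusted p = 0.111). Rpl37a, Rps14, Rps21 and Rps27 were called higher, with fitted log2 differences of 0.29 to 0.38. Of these, Rps27 was called in 1 of 5 fits, Rps21 in 3, and Rpl37a and Rps14 in 4, all 4 genes losing the call with library totals. Reads from a stretch shared with a copy do not show which gene they came from. The order of CPM between genes is therefore not read as an order of transcript numbers.

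Other genes of the translation machinery were counted in the same fits, where 12.8% of all genes were called higher and 9.12% lower with age in endothelial-like cells, and 16.8% and 12.2% in microglia-like cells. Of 6 other ribosome-bound or fusion genes, 2 were called higher with age in endothelial-like cells and none lower, and all 6 were higher in microglia-like cells. Fau, which encodes a small subunit protein fused to a ubiquitin-like one, rose from 2081 and 2100 CPM to 2547 and 2285 CPM in endothelial-like cells (log2 0.36, edgeR adjusted p = 0.0201). Of 25 elongation and initiation factors and other TOP-class genes, 10 were higher and 1 lower in endothelial-like cells, and 21 were higher and none lower in microglia-like cells. Tpt1, a TOP mRNA, rose from 4670 and 5050 CPM to 6084 and 5977 CPM (log2 0.46, edgeR adjusted p = 0.00717).

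The mitochondrial ribosomal proteins, which serve a separate ribosome, were counted in the same way. Of 77 tested in endothelial-like cells, 4 were called higher and 9 lower, beside 12.8% and 9.12% of all genes, and their median log2 ratios with age were -0.27 and -0.20, beside -0.18 and -0.16 over all genes. In microglia-like cells 22 were higher and 2 lower, beside 16.8% and 12.2% of all genes, with medians of -0.07 and -0.10, beside -0.26 and -0.33 over all genes, and a median fitted difference of 0.20. Of 30 genes of ribosome biogenesis, 4 were higher in endothelial-like cells, a share near the 12.8% of all genes, and none lower. Among the 4 was Npm1, a nucleolar chaperone (log2 0.63, edgeR adjusted p = 5.3e-05), while the median fitted difference over the 30 genes was 0.028. In microglia-like cells 15 of the 30 were higher and 1 lower. Of 16 genes of TOR and TOP mRNA control, 2 were higher, again near the 12.8% of all genes, and 3 lower in endothelial-like cells, and 3 and 2 in microglia-like cells.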

How the data were processed

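Per the file headers the deposited matrices hold UMI counts made with Cell Ranger 6.0.2, and the labels name GRCm38 and Seurat; the annotation release is not given in the sources used here. Reads were not reprocessed. Barcodes with at least 500 genes, 1000 UMIs and at most 10% mitochondrial UMIs were kept, and the highest Scrublet scores were removed at 0.8% per 1000 cells. Cells were clustered with scanpy 1.11.5 (2000 variable genes, 30 components, 20 neighbours, Leiden resolution 1), leaving out members, copies and genes of the other lists. A cluster was named when at least 3 and at least 50% of the markers of exactly 1 class reached 20 CPM and 25% of their highest cluster level, unless another class had more markers among its 10 leading genes. Of 28 clusters, 6 stayed unnamed.

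UMIs were summed per class and library, and ratios of CPM were put on the log2 scale after adding 0.5 UMIs. Age and genotype label were tested with edgeR 4.0.16 (TMM, filterByExpr, quasi-likelihood F test, threshold 0.05), and DESeq2 1.42.0 was an alternative. P-values rest on 1 residual degree of freedom, which is the departure of the 4 libraries from additive effects of age and genotype label. The dispersion was otherwise shared across genes, and no p-value measures a spread between replicate libraries. Intervals are exact 95% intervals for counting error. Copies were found with blastn 2.17.0 (at least 85% identity over 50% and 100 bases). Genes were named by fixed rules: the 10 highest, the 5 highest and lowest mean ratios with age and with genotype label among members at 50 CPM or more, paralogues, stalk genes, the members with most copy UMIs, and those differing most between classes. Members and lists were chosen with earlier results of these data known. Values of some members that these rules name are not reported here.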

Additional observations from a re-analysis of the deposited data

Results flagged for a closer look

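In pericyte-like cells the genotype label went opposite ways at the 2 ages. The median member log2 ratio of EC-K4KO over WT Cre was 0.378 among young and -0.263 among old libraries. This difference was not tested, since each group is 1 library. The members held 4.77% and 6.28% of UMIs in the young WT Cre and EC-K4KO libraries, and 7.45% and 6.06% in the old ones. The class joins 2 clusters whose mix differed, the one led by Ccl19 and Il6 holding 19 of 208, 87 of 281, 85 of 223 and 29 of 131 cells, with shares of 7.05% to 8.38%. In the cluster led by Atp13a5 and Vtn alone the shares in that order were 4.43%, 5.35%, 6.58% and 5.55%, and the median depth of its cells was 3691, 3345, 2492 and 2260 UMIs.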

How the results depend on the processing

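The median member log2 ratios are given in the order young pair, old pair, age in WT Cre and age in EC-K4KO. With TMM factors, endothelial-like medians were 0.0625, -0.0636, 0.319 and 0.189, and with DESeq2 size factors 0.0657, -0.0584, 0.348 and 0.22. Scaled to UMIs of neither members nor mitochondria, the last 3 were -0.0665, 0.2 and 0.124. With every cell weighted equally they were -0.00216, -0.0708, 0.147 and 0.0849, and with classes by marker UMIs in each cell -0.00357, -0.0701, 0.169 and 0.0995. With the stricter cell filter the old pair and age in WT Cre gave -0.0468 and 0.166, and with no minimum level -0.0534 and 0.167. Other alternatives were chosen after seeing the data. Without the cluster led by Ch25h and Ackr1 the medians were -0.0331, -0.0769, 0.131 and 0.0669, and in cells with 3000 to 6000 UMIs -0.00119, -0.0698, 0.152 and 0.0872. With the unnamed cluster led by Gkn3 and Fbln5 the last 3 were -0.0666, 0.172 and 0.0947. In microglia-like cells the medians were -0.062, 0.0944, 0.761 and 0.875 with TMM factors, -0.0736, 0.121, 0.726 and 0.878 with DESeq2 size factors, -0.00282, 0.0143, 0.37 and 0.349 in the cluster led by P2ry12 and Cx3cr1, and -0.034, 0.0785, 0.592 and 0.679 in cells with 3000 to 6000 UMIs. The age medians were positive under all of these settings.

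In edgeR with library totals, 17 members were called higher with age in endothelial-like cells and 3 lower in microglia-like cells. DESeq2 called 2 lower with age in endothelial-like cells (1.14% of all genes), and without a filter edgeR called 1 of 88, Rps4l, lower for the genotype label (1.11% of all genes). At a log2 ratio of 0.3, 8 of 81 members were higher and 5 lower for age in WT Cre (8.53% and 31.6% of all genes), 8 higher and 9 lower for age in EC-K4KO (8.95% and 28.5%), and 2 lower in the old pair (6.87%). The age difference turned negative with library totals in 13 of 85 members and without a filter in 4. Among genes named by rule these were, with library totals, Rpl31 (-0.10), Rpl38 (-0.12), Rplp2 (-0.022) and Rps29 (-0.13), and, without a filter, Rpl38 (-0.008) and Rps29 (-0.014). None of these 4 was called in any fit. Library totals shifted members and all genes by about the same amount: the median age difference went from -0.014 to -0.165 over all genes and from 0.288 to 0.138 over the members. Without a filter these medians were -0.094 and 0.225.

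The additive model compares age within each genotype label and the label within each age, with 1 library per group. Leaving out a library would leave this model no residual degree of freedom. A model of age alone was not run. Depth limits the values of members with few UMIs such as Rpl39l (19 to 110 UMIs in endothelial-like cells).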
